A study of Mus musculus with 14 samples.

Results

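RUNX2 peaks of day 3 were compared with those of day 0 in ATDC5, a mouse teratocarcinoma-derived chondrogenic line. The 4 libraries were taken from a chromatin immunoprecipitation series of 14 samples, 12 of them with a peak list. Day 0 cells were the starting point of differentiation. Day 3 cells had been spotted as dense droplets and cultured in medium with β-glycerophosphate (bGP) and an ascorbate phosphate. Both groups came from the same unmodified line, with no transgene or deletion named, and chromatin was precipitated with a mouse antibody against RUNX2. Each day had 2 libraries, numbered 1 and 2 in the labels, and nothing in the labels says that they came from separate cultures. A region was counted as present on a day when a peak of both lists of that day overlapped it by at least 1 bp. Merging the 4 lists gave 18780 regions, of which 15899 on assembled chromosomes were present on day 3. On day 0, 60 regions were present, 41 of them on assembled chromosomes.

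RUNX2 is a runt-domain transcription factor that binds DNA together with CBFB and is required for osteoblast formation and for the hypertrophic maturation of chondrocytes. Its core site reads TGTGGT or TGCGGT. In growth cartilage it is known to act on genes of the hypertrophic programme, such as those of collagen X and the collagenase MMP13, and in bone on osteopontin and osteocalcin. Promoters of broadly expressed genes are commonly rich in CG dinucleotides and in GC boxes (GGGCGG), and many hold an ETS site (CCGGAAG).

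Bases upstream of 6 genes with a day 3 region at the start are printed from RefSeq (GRCm38.p6). Runx2, Spp1 and Snrpc hold a RUNX core, at 46.7, 43.6 and 44.5% GC in the bases shown. Nkx3-2, Htt and Ints1 hold none there, at 68.8, 66.2 and 54.9% GC. Promoter windows of all genes with a day 3 region at the start had a median of 62.3% GC. The 6 genes were chosen after their values were seen and do not stand for such promoters in general. Capitals mark a RUNX core, an ETS site or a GC box on either strand, and each sequence runs 5′ to 3′ on the strand of its gene. Bases inside the gene's own annotated span are left out, and of Runx2 only the 30 bases around the match are shown. Runx2 (chr17:44814690-44814719, minus strand) has the core on the opposite strand, 80 bases upstream of the start. Spp1 (chr5:104434861-104435110, plus strand), the osteopontin gene, has it 128 bases upstream, in a window of 43.6% GC with 3 CG dinucleotides. Snrpc (chr17:27839837-27840027, plus strand) has it 214 bases upstream and 7 CG dinucleotides. Nkx3-2 (chr5:41764221-41764470, minus strand), Htt (chr5:34761490-34761720, plus strand) and Ints1 (chr5:139775703-139775928, minus strand) have no RUNX core in the bases shown, and 21, 19 and 11 CG dinucleotides in that order. The Nkx3-2 bases also lie in the span of Gm46910, a long noncoding RNA gene, and those of Runx2 in the span of Supt3.
Runx2: gtgaggtcacaaACCACAtgattctgtctc
Spp1: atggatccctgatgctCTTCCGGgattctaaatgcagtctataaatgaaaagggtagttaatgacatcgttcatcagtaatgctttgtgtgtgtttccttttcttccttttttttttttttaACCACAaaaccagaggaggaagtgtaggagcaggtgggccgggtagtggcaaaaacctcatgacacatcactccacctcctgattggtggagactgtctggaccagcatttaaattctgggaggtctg
Snrpc: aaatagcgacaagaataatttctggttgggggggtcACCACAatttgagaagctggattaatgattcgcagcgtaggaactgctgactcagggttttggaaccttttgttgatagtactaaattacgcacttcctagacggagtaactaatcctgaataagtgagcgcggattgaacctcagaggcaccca
Nkx3-2: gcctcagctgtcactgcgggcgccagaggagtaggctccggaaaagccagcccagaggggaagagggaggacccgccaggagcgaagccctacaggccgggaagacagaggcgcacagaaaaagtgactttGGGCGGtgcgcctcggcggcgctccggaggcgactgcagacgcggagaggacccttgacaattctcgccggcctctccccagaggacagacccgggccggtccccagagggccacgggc
Htt: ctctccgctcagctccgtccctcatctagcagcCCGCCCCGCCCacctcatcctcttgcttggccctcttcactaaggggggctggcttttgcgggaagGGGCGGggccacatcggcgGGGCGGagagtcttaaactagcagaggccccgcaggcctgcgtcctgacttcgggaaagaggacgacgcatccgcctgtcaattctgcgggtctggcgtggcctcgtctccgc
Ints1: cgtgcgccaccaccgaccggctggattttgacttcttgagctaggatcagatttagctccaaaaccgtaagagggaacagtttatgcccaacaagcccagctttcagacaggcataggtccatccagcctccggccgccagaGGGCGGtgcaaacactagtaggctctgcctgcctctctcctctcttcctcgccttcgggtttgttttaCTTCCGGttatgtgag

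The day 3 lists went against their labels as 2 libraries. The number of reads over each summit (the pileup) and the local background were solved from the fold enrichment and −log10 p that each list gives. Of 17330 pairs of overlapping peaks in the day 3 lists, 8992 (51.9%) had their summit on the same base, and 74.7% had it within 2 bp. At all 8992 of these summits the pileup was the same whole number in both lists. The background was equal within 0.01 reads at 54 of them and lower in list 2 at 7569. In the other 27 pairs of lists with at least 10000 overlapping peaks, 0.128 to 0.652% of summits shared a base, the median distance between summits was 67.0 to 265 bp, and 16 of 1315 shared summits had the same pileup. The 2 day 3 lists therefore hold the same precipitated reads at these summits, called against different backgrounds. They were counted as 1 sample, so that day 3 has no replicate, and presence in both lists means presence under both backgrounds. The day 0 lists differed as separate libraries do, with 98 overlapping peaks, 3 summits on the same base and 0 of these with the same pileup.

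**Figure D1:**
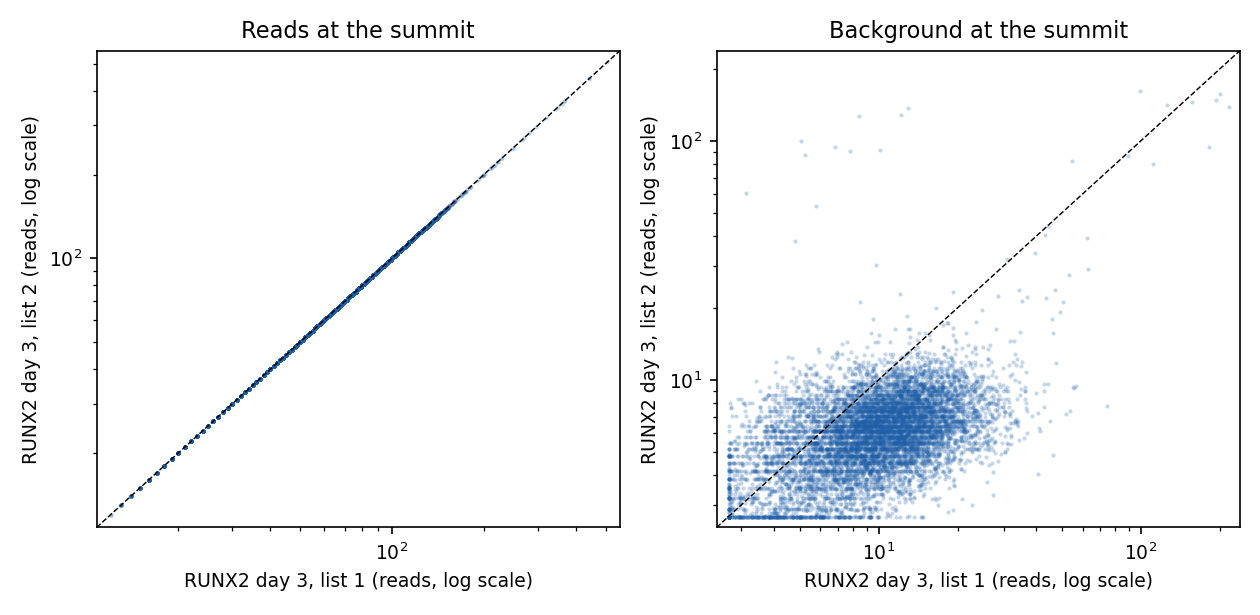
Reads at the summit (left) and local background at the summit (right) for the 8992 peaks whose summit lay on the same base in both RUNX2 day 3 lists, list 1 on the x axis and list 2 on the y axis, in reads on log scales. The dashed line marks equality. All points lie on the line at left, and 7569 lie below it at right.

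On assembled chromosomes the day 0 lists held 108 and 102 peaks (mean 105 ± 4.24 SD, n = 2). The day 3 lists held 19319 and 16859 peaks, for 1 sample. The mean over both calls, 18089, was 172-fold the day 0 mean, or 7.43 on the log2 scale. No day 3 list came near a day 0 list. With 2 samples against 1, or 2 against 2, an exact two-sided permutation test cannot go below 0.33, and it gave 0.33. The day 10 lists, outside this comparison, held 101 and 97 peaks. Sequencing depth is not given by the lists, so the part that depth or the efficiency of the precipitation has in these numbers was not tested.

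The peaks of the 2 days also differed in their make-up. Day 0 peaks had a median of 150 and 156 reads at the summit over a median background of 58.3 and 54.6 reads. Day 3 peaks had 65.0 and 69.0 reads over 8.92 and 5.94. The highest background of any peak on day 0 was 71.3 and 71.5 reads. The usual day 0 peak thus had more reads than the usual day 3 peak, over a background several times higher. However, the peaks of the 2 days lay mostly at different places. At the 60 day 0 regions the day 0 background had medians of 55.8 and 55.2 reads. Of these regions, 46 had a day 3 background in both lists, with medians of 99.8 and 113 reads. The part that place has in the difference was not tested.

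**Figure D2:**
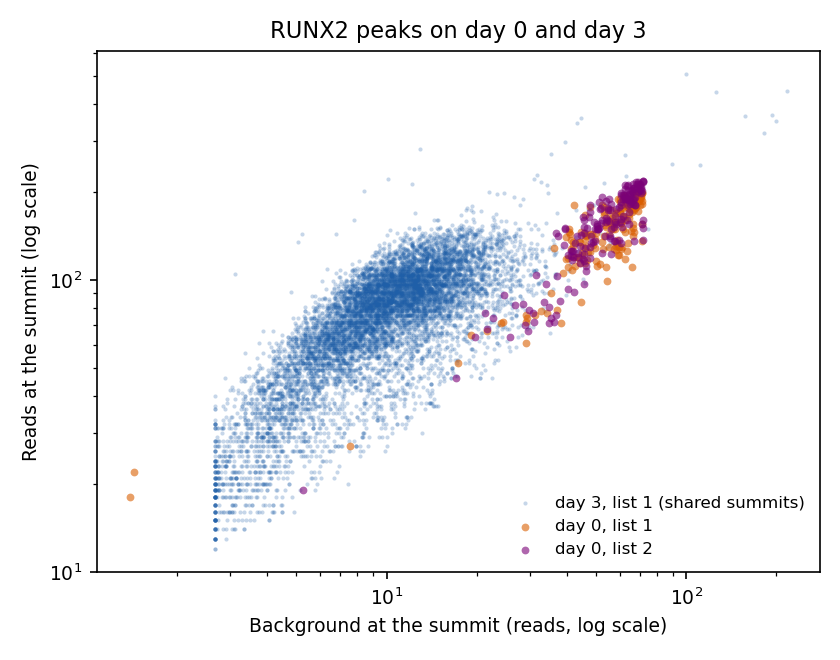
Reads at the summit against local background, both in reads on log scales, for all day 0 peaks of list 1 (orange) and list 2 (purple) and for the 8992 day 3 peaks with a shared summit (blue, list 1 background). Day 0 peaks gather at backgrounds of about their medians of 58.3 and 54.6 reads, and day 3 peaks at lower backgrounds.

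Day 3 regions lay mostly at gene starts. Of the 15899 regions, 12067 (75.9%, 95% Clopper-Pearson interval 75.2 to 76.6) came within 1 kb of the start of a protein-coding gene, a window that takes up 1.98% of the annotated bases. Gene bodies held 1619 regions (10.2%, 9.72 to 10.7), against 36.9% of bases. Intergenic sequence held 2213 regions (13.9%, 13.4 to 14.5), against 61.1% of bases. The intervals cover counting error only. Of the intergenic regions, 735 (33.2%) lay within 1 kb of the start of another annotated gene, such as a noncoding RNA or a pseudogene. Of the regions at starts, 1457 (12.1%) reached the starts of 2 or more genes, and at most 3. Day 0 peaks were absent from 15861 of the 15899 regions.

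Regions at gene starts were also wider and carried more reads. The median region was 1433 bp wide at gene starts, 933 bp in gene bodies and 757 bp in intergenic sequence. The median pileup was 80.0, 42.0 and 37.0 reads in that order. Fold enrichment over background, the authors' value, had medians of 7.07, 6.01 and 5.86 in list 1 and 11.6, 6.35 and 5.44 in list 2. On the same day, a peak of both H3K4me3 lists, which mark active and poised promoters, overlapped 99.3% of the regions at starts, 93.9% of those in gene bodies and 91.6% of the intergenic ones.

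**Figure D3:**
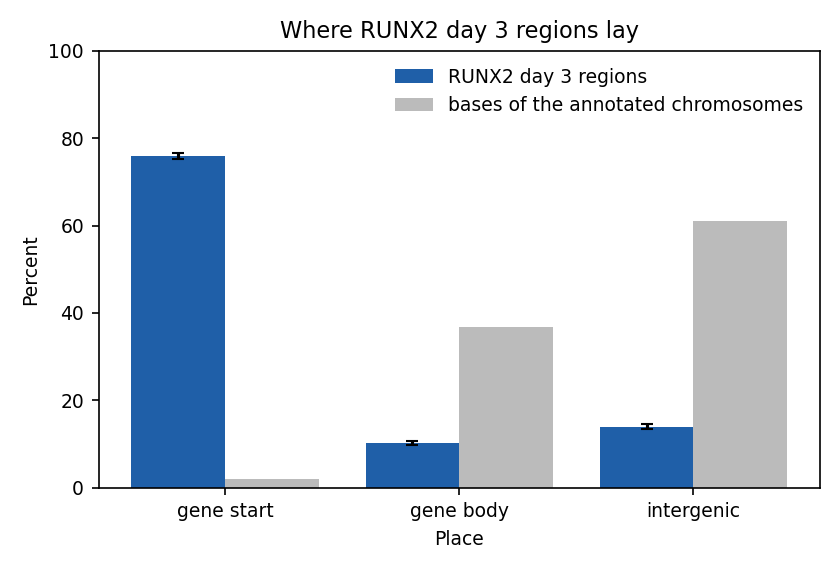
Percent of the 15899 RUNX2 day 3 regions (blue, with 95% Clopper-Pearson intervals) and of the annotated bases (grey) at gene starts, in gene bodies and in intergenic sequence. Gene starts hold 75.9% of regions and 1.98% of bases.

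Regions called in 1 of the day 3 lists only had few reads. A further 1988 regions were called in list 1 alone, with a median pileup of 18.0 reads, and 57.5% of them were intergenic and 7.90% at gene starts. List 2 alone called 889 regions, with a median pileup of 24.0 reads, and 40.6% of these were at gene starts. Across the 15899 regions, Spearman's rho between the fold enrichments of the lists was 0.39, although both rest on the same reads. List 1 background rose with region width (rho = 0.68), and list 2 background hardly did (rho = 0.11). These correlations are across regions of the same sample and describe them only. Fold enrichment in list 1 accordingly had no relation with width (rho = 0.00), whereas that in list 2 did (rho = 0.66). Below, reads at the summit are given first, because they do not depend on the background.

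Summits within 1 kb of an annotated start lay mainly downstream of it. In list 1, 10700 summits were that close, at a median of 246 bp downstream (quartiles 105 and 369), and 78.8% were downstream. In list 2, 10048 summits had a median of 252 bp (130 and 375), and 81.1% were downstream. Within 50 bp of the start lay 2.44 and 2.39% of them. H3K4me3 summits of day 3 lay closer to the start, at medians of 127 and 126 bp, with 65.9 and 63.9% downstream. On day 3 the 2 antibodies thus differed by more than the 2 H3K4me3 libraries did, but RUNX2 had 1 sample and no test was made. Between overlapping peaks, summits of the day 3 H3K4me3 lists were a median of 103 bp apart, and 133 to 162 bp from the RUNX2 day 3 lists. The order was the opposite for H3K4me3 of the other days. Its day 10 lists were 144 bp apart and 67.0 to 139 bp from RUNX2 day 3, and its day 0 lists 189 bp apart and 107 to 176 bp from it. The difference therefore cannot be credited to the antibody.

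**Figure D4:**
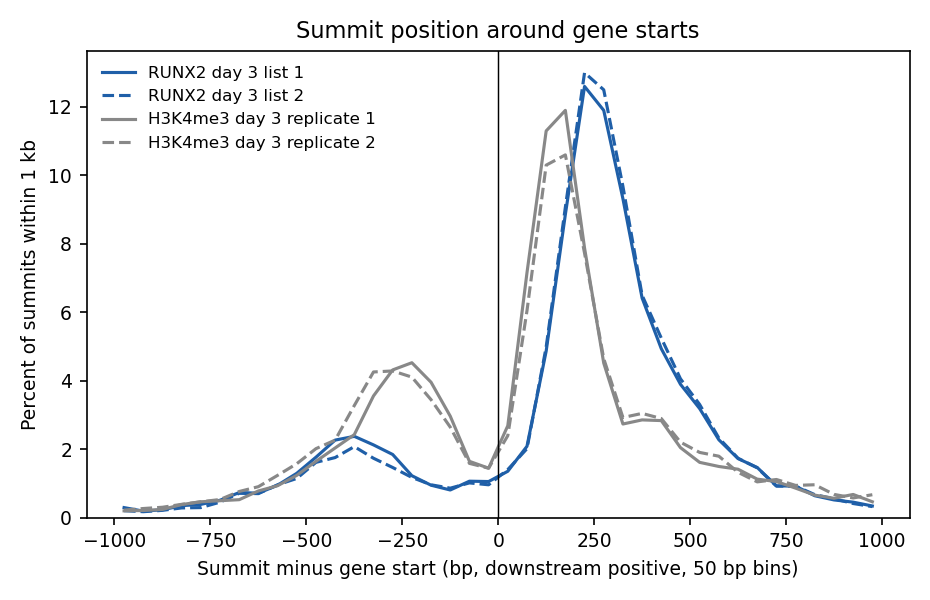
Percent of summits per 50 bp bin against the distance from the nearest annotated gene start (bp, downstream positive), for both RUNX2 day 3 lists (blue) and both H3K4me3 day 3 libraries (grey). RUNX2 summits peak near 250 bp downstream (medians 246 and 252), and H3K4me3 summits nearer to the start (medians 127 and 126). Both antibodies also show a lower peak upstream, which is larger for H3K4me3.

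The regions ranked best at gene starts included Htt, the huntingtin gene, with 179 reads at the summit (chr5:34760874-34763015, 8.85-fold and 16.5-fold in lists 1 and 2). Ints1, a subunit of the Integrator complex that processes small nuclear RNA, had 161 reads (chr5:139774679-139775791, 12-fold and 17-fold). Snrpc, a protein of the U1 spliceosomal particle, had 150 reads (chr17:27839509-27840959, 11.3-fold and 19.1-fold). Pdia5, a protein disulfide isomerase of the endoplasmic reticulum, had 176 reads. Pitpnb, a phosphatidylinositol transfer protein, had 167, and Abraxas1, a subunit of a BRCA1 complex, had 159. The Mcmdc2 region had 210 reads and also covered the start of Snhg6, a noncoding host gene of small nucleolar RNAs. The other 3 of the best 10 lay at Gm5165, Gm51425 and 9030025P20Rik, with 200, 222 and 217 reads. None of the 10 was present on day 0.

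In gene bodies the best-ranked regions lay in Grb2, an adaptor of receptor tyrosine kinase signalling (148 reads), and in Pop5, a subunit of RNase P (148 reads). The Grb2 summit was 8163 bp from its nearest annotated start, inside the gene's span. Psph, an enzyme of serine synthesis, had 133 reads, Btbd9 181, the nuclear export receptor gene Xpo4 154, Herc3 120, Zkscan14 144 and Mical3 120. Summits in Grb2, Btbd9, Xpo4, Herc3 and Zkscan14 had a negative distance to the nearest start (-8163, -5802, -3490, -1921 and -2559 bp). A negative distance means upstream where the strand is known. Whether these regions lie at gene starts that were not annotated here was not tested. Genes with the most regions in their span were Bcor, a BCL6 corepressor, and Maml3, a Notch coactivator, with 8 each over 123780 and 418000 bp. Pde4d, a cyclic AMP phosphodiesterase, held 7 over 1301793 bp, none of them at its own start, and the transcription factor gene Foxp1 held 6. Gm37013, a gene model on chromosome 18, held 7, and the overlapping Gm38666 held 6. Ablim1, Aopep, Chd9 and Dnm3 held 6 each.

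Of the 8 best intergenic regions, 4 lay on chromosome 8 between positions 19784187 and 20424907, with 378, 359, 345 and 296 reads. Of these, 3 covered pseudogenes and 1 (chr8:20121777-20123391) no annotated gene. A region near Ern1 (chr11:106500858-106501787, 152 reads) covered the noncoding Gm36220 and Snord104, and one near Usp46 (chr5:74092594-74094718, 149 reads) covered Dancr and Snora26. Snord104 and Snora26 are small nucleolar RNA genes. The other 2 lay nearest to Dynlt1b (271 reads) and Gm3448 (229 reads) on chromosome 17. No intergenic region of the 8 was present on day 0, but a day 0 region (chr8:20328777-20329374) lay within the chromosome 8 stretch. The 4 regions of that stretch had backgrounds of 38.9 to 44.4 reads in list 1 and 34.0 to 50.0 in list 2. Over all day 3 peaks the median background was 8.92 and 5.94 reads.

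The 8 widest regions included those at Zfp503 (10725 bp, 117 reads), Trps1, a zinc-finger factor of growth cartilage (10216 bp, 85 reads), Nr2f2, an orphan nuclear receptor (9846 bp, 100 reads), and Nfib (9380 bp, 105 reads). The widest of all, 14554 bp, lay nearest to Ifne over the noncoding Gm49890, with 80 reads in list 1 and 82 in list 2 at different summits. Others covered the noncoding Mir100hg (10401 bp) and a stretch nearest to Ppara (9413 bp). At these 7 regions the background was 31.7 to 59.9 reads in list 1 and 4.05 to 10.3 in list 2, so the fold enrichment was 1.94 to 2.63 in list 1 and 8.26 to 20.0 in list 2. The other region, on chromosome 9 (10224 bp), was present on day 0 too and is described with the day 0 regions.

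At the level of genes, 11939 of 21887 protein-coding genes had a day 3 peak of both lists within 1 kb of a start, which is 54.5%. On day 0 this was 0 of 21887 genes (0%), and 0 in either day 0 list alone. Among the 17492 genes with an annotated start in the promoter table, 9725 (55.6%) were called on day 3, and the other 4395 genes were placed by either end of their span, so that some calls may lie at a 3′ end. By chromosome the share ran from 42.9% on chromosome 7 and 40.6% on X to 64.1% on chromosome 12, and it was 0 of 256 on Y. A called gene is thus common, and each list below is read against 54.5%. The lists are known sets of genes, no test was made on them, and no member of any of them was called on day 0.

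All 18 members of the list of RUNX genes, CBFB, corepressors and other regulators of RUNX2 were called, with 50.0 to 112 reads at the summit. Runx2 itself had 70 reads (chr17:44813156-44814788, 5.89-fold and 6.31-fold), with the summit 397 bp downstream of the annotated start and 5 regions in its span. Its paralogs Runx1 and Runx3 had 92 and 85 reads, and Cbfb, the DNA-binding partner, had 101. The Groucho corepressor genes Tle1, Tle3 and Tle4 had 65, 96 and 81 reads. Hdac4, Hdac3 and Hdac7, histone deacetylase genes, had 73, 50 and 72. The ubiquitin ligase genes Smurf1 and Stub1, whose products act on RUNX2, had 112 each. Yap1 and Wwtr1, Hippo pathway coactivators, had 92 and 78, the acetyltransferase genes Kat6a and Ep300 109 and 96, Twist1, a factor that blocks RUNX2, 56, and the zinc-finger gene Zfp521 55.

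Of the 25 textbook RUNX2 targets, 15 were called (60.0%, near the 54.5% of all genes). Spp1 had 63 reads (chr5:104435074-104436660, 5.07-fold and 5.10-fold) at a summit 402 bp downstream of the start in list 1. Col1a2 and Col1a1, the chains of collagen I, had 124 and 102 reads. Sp7, the osteoblast factor downstream of RUNX2, had 107, Vegfa, which draws vessels into cartilage, 107, and Fgfr3, a brake on chondrocyte growth, 110. Tnfrsf11b (osteoprotegerin) had 73 reads, Alpl, the alkaline phosphatase of mineralizing cells, 48, and Fgf18 28. Fgfr2, Wnt10b, Panx3 and Smpd3 had 73, 90, 34 and 84.

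The other 10 textbook targets had no call. Col10a1, the collagen of hypertrophic cartilage, lay 27758 bp from the nearest day 3 region, Mmp13 86914 bp and Ihh, the hedgehog ligand of the growth plate, 96127 bp. Ibsp (bone sialoprotein) was 135787 bp away, Dmp1 149407 bp, and Tnfsf11 (RANKL) 227751 bp. Phex was 75461 bp away, Bglap and Bglap2, the osteocalcin genes, 24448 and 30213 bp, and Mmp9 4636 bp. None of the 10 had a region inside its span. No region was called there at this depth, which does not show that RUNX2 was absent.

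Among the hypertrophic chondrocyte genes 18 of 22 (81.8%) were called, with Col10a1, Ihh, Mmp13 and Ibsp the 4 that were not. Foxa3 and Foxa2, forkhead factors of hypertrophic cells, had 86 and 29 reads, and the Foxa3 region lay 859 bp outside its start. Mef2c and Mef2d, which drive hypertrophy, had 77 and 79. Dlx5 and Dlx6 had 97 and 112 and Msx2 90, all of them homeobox factors. The mineralization genes Enpp1, Ank, Phospho1 and Slc20a1 had 81, 87, 96 and 84 reads. Cdkn1c, a cell cycle inhibitor, had 23 and Pth1r, the receptor that restrains hypertrophy, 70.

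Of the 26 cartilage matrix genes, 12 were called (46.2%, near the share of all genes), with a median of 54.5 reads. Col2a1, the main collagen of cartilage, had 74 reads and Acan, the main proteoglycan, 25. Col27a1 had 95, Col11a1 63, Cspg4 83 and the sulfotransferase gene Chst11 91. Comp, Hapln1, Prelp and Fmod, matrix proteins, had 36, 25, 35 and 22, and Xylt1 and Papss2, enzymes of glycosaminoglycan synthesis, 60 and 49. Without a call were Col9a1, Col9a2, Col9a3, Col11a2, Matn1, Matn3, Matn4, Cnmd, Epyc, Chad, Snorc, Ucma, Cilp and Prg4, at distances from 6045 bp (Col11a2) to 329802 bp (Epyc). Matn4 alone of these held a region in its span.

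Of the 13 SOX and early chondrocyte factors, 7 (53.8%, near the share of all genes) were called. Sox9, the master factor of chondrocytes, had 133 reads (chr11:112780224-112785949, 3.59-fold and 14.4-fold) over a region of 5726 bp. Sox6 had 71, Nkx3-2 83, Trps1 85, the ubiquitin ligase gene Wwp2 84 and Pthlh, the ligand of Pth1r, 62. Sox5 had 5 regions in its span but none at its annotated start. Barx2, Foxc1, Gdf5, Bmp2 and Bmpr1b had none at a start or in the span.

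Osteoblast and bone matrix genes were called in 9 of 20 cases (45.0%, against 54.5% of all genes), most of which are named above. Sparc (osteonectin) had 98 reads and Atf4, a stress-response factor that acts with RUNX2 in osteoblasts, 87. Mepe, Sost, Omd, Ifitm5, Bmp3 and Dlx3, genes of late osteoblasts, osteocytes and bone, had no call, at 109745, 16805, 25440, 4164, 152496 and 14209 bp from the nearest region. Over the 12 lists named by symbol, those of other cell types among them, 98 of 221 distinct genes were called. This is a lower share than the 54.5% of all genes. The pileup was the same in both lists at all 98. Counting also regions in the gene span, or nearest to the gene within 50 kb, 116 of the 221 were called, again a lower share than the 59.8% of all genes. Of the 98, 27 had no annotated start in the promoter table. Of the other 71, 58 had their summit downstream of the start.

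Lists that mark other cell types lay below the share of all genes. Skeletal muscle had 1 of 20 (Actn3, 129 reads), and neurons had 3 of 20 (Tubb3, Map2 and Syt1). Blood had 3 of 20, among them Cd4 and Spi1 with 21 and 32 reads, and epithelium 3 of 20 (Epcam, Ocln and Esrp2). The pluripotency list had 4 of 20 (Sox2, Klf4, Tbx3 and Tfcp2l1). Actn3, Cd4, Spi1, Esrp2 and Tbx3 had no annotated start. They were called by an end of the gene span, which may be the 3′ end. These lists say nothing of RNA levels, which were not measured.

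Genes used by every cell lay above it. Housekeeping genes were called in 19 of 20 cases, cytosolic ribosomal proteins in 79 of 83 and mitochondrial ribosomal proteins in 74 of 75. Proteasome subunits were called in 37 of 39 cases, and aminoacyl-tRNA synthetases and RNA polymerase II subunits in all 18 and all 13. Zinc-finger genes of the Zfp series stood at 314 of 367 (85.6%) and HOX genes, which pattern the body axis, at 25 of 39 (64.1%). At the other end, 1 of 1106 olfactory receptor genes, 1 of 353 vomeronasal receptor genes, 0 of 49 keratins and 0 of 70 defensins were called, and 13 of 92 cytochrome P450 genes.

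**Figure D5:**
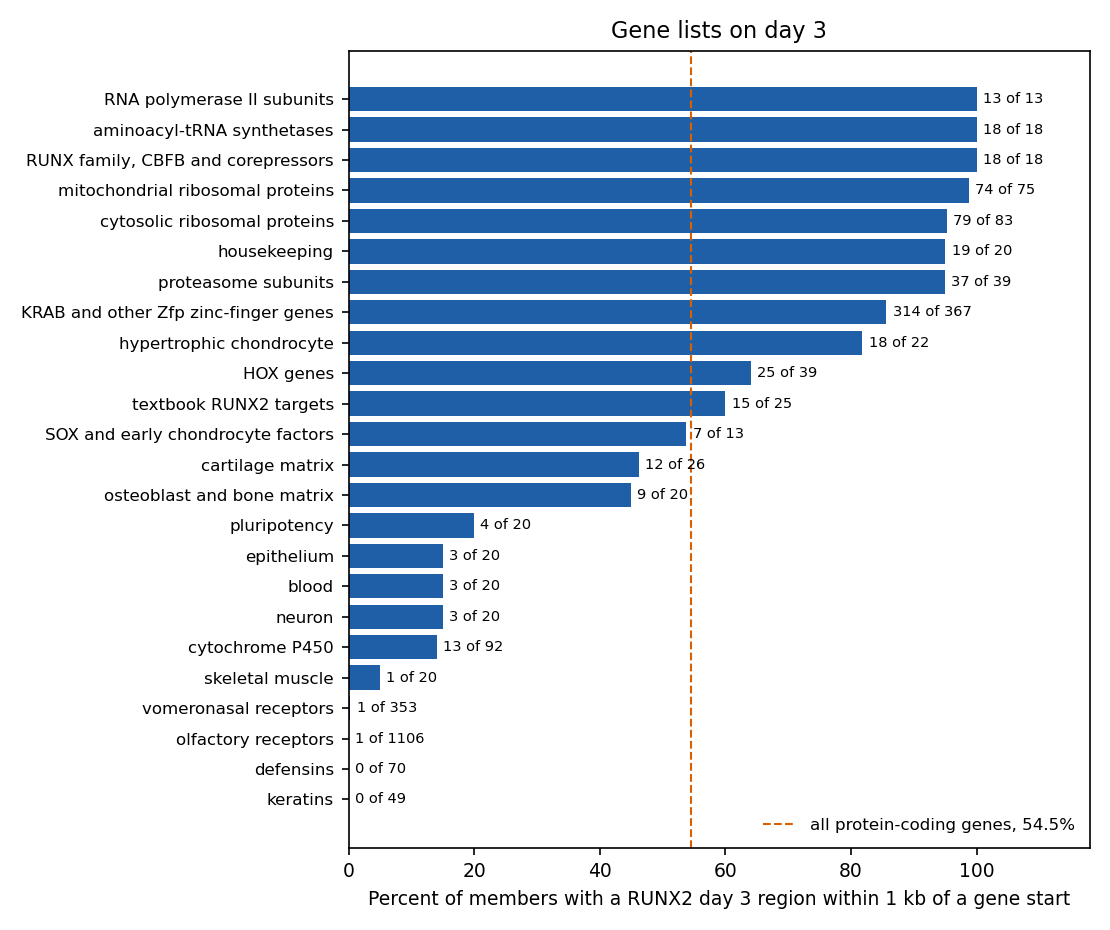
Percent of the members of each of 24 gene lists with a RUNX2 day 3 region within 1 kb of a gene start, with the number called and the number of members. Genes without an annotated start were placed by either end of their span. The dashed line marks the 54.5% of all protein-coding genes. Ubiquitous gene classes and the list of RUNX genes, CBFB and corepressors are at the top, and receptor, keratin and defensin families at the bottom.

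Promoters of called genes were richer in GC and in GC boxes than those of uncalled genes, and held the RUNX core slightly less often. In windows from 250 bases before to 50 after a start, counting matches on both strands, TGTGGT or TGCGGT was found in 20.0% of 11572 windows of called genes and in 23.5% of 9691 windows of uncalled genes (21.6% of all 21263). TGTGGT alone was found in 10.9 and 19.9%, and TGCGGT alone in 10.0 and 4.38%. The GC box GGGCGG was in 68.5 and 19.6%, the ETS site CCGGAAG in 19.0 and 2.66%, and TGACGTCA in 3.36 and 0.887%. CCAAT was equally frequent (38.2 and 38.1%), and TATAAA (6.18 and 20.3%) and the SOX-type AACAAAG (3.27 and 7.09%) were less frequent in called windows. TGCGGT holds a CG dinucleotide, and TGTGGT does not. Median GC content was 62.3% in called and 49.0% in uncalled windows, with medians of 22.0 and 3.00 CG dinucleotides. Windows of 1 gene can overlap, and the window does not reach the usual summit about 250 bp downstream, so no match says only that these letters are not in it.

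Day 0 regions lay in few places, and none at a gene start. Of the 60 regions, 17 were on unplaced scaffolds, 2 on the mitochondrial genome and 41 on assembled chromosomes, of which 3 were in gene bodies and 38 intergenic. Scaffold JH584304 alone held 69 of 183 peaks (37.7%) of day 0 list 1 and 64 of 174 (36.8%) of list 2. The day 3 lists had 23 and 17 peaks there, among 19366 and 16888 in all. A stretch at the start of chromosome 9 (chr9:3000032-3038256) held 15 regions. A cluster on chromosome 2 (chr2:98662097-98667440) held 4, and one on chromosome 17 (chr17:39843674-39848784) held 3, of which 2 lay over Rn18s-rs5, a pseudogene of the 18S ribosomal RNA, and 1 of these also over the noncoding AY036118. These blocks were named after the regions were seen.

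The other 19 day 0 regions stood alone. Those in gene bodies lay in Chl1, a neural adhesion gene (chr6:103648924-103649465, 185 and 190 reads on day 0), in Cmss1 and Filip1l (chr16:57391278-57391788, 67 and 74 reads) and in D5Ertd579e and Gm32584 (chr5:36630387-36630919, 84 and 93 reads). One lay over the pseudogene Gm10222 on chromosome 1 (136 and 137 reads), 25672 bp from the start of Col19a1. Protein-coding genes nearest to the others within 50 kb were Ly6c2, Gm45871, Gm14496, Mrgprd, Gm15319 and Rpusd4. None of these genes belongs to the cartilage or bone lists.

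All 60 day 0 regions were overlapped by a peak of at least 1 day 3 list, and 47 (78.3%, Clopper-Pearson interval 65.8 to 87.9) by both. This share and the number of regions depend on how overlap is counted. Under a reciprocal overlap of 50% there were 135 day 0 regions, of which 8.15% were found on day 3, and without day 3 list 2 there were 137, of which 51.8% were. On day 10, 52 of the 60 were present, and 55 were overlapped by at least 1 H3K4me3 list of any day, an antibody against another target. Positions that were present on day 0 and not on day 3 numbered 13, of which 5 were in list 1 alone and 8 in list 2 alone. Of the 60, 0 lacked a peak in both day 3 lists.

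Reads at the day 0 regions were higher on day 3 in the median, 244 against 153 and 162. These are raw reads from libraries of unknown depth, so whether the signal rose there was not tested. On day 0 the highest number of reads in list 1, 198, recurred at regions on chromosomes 2 and 9. At the 15 single regions with a background in both lists, the day 3 background was higher in list 2 at all 15, with medians of 10.1 reads in list 1 and 99.7 in list 2. The fold enrichment there was 20.0 in list 1 and 1.77 in list 2 (medians). On chromosome 12 (chr12:3109696-3110260), for example, 256 reads on day 3 stood over a background of 11.1 in list 1 and 115 in list 2, and 197 and 216 reads on day 0 over 68.1 and 68.2. In the chromosome 9 stretch the order was the opposite at 10 of 11 regions, with medians of 182 reads in list 1 and 141 in list 2.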

How the data were processed

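Chromatin of ATDC5 cells was precipitated on days 0, 3 and 10 with antibodies against RUNX2 or H3K4me3, in 2 libraries each, and sequenced in 75 bp reads per the labels. The tools named are MACS2, HISAT2 2.2.0, Trim Galore and FastQC, on build GRCm39, per the submitters' processing notes. Settings, duplicate removal and the control used for calling were not given in the sources used here. The deposited peak lists, 1 per library, give by the format's column order a score, the fold enrichment as a ratio to the authors' background, and the −log10 of p and q. Depth is unknown.

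The lists were read as GRCm38, because 55.4 and 59.6% of RUNX2 day 3 summits lay within 1 kb of a RefSeq GRCm38.p6 gene start, and 3.08 and 3.26% did after a shift of 20 kb. Pileup n and background λ were solved from fold = (n + 1) / (λ + 1) and the Poisson p. This assumes the pseudocount of 1 and gave whole numbers within 0.01 in −log10 p, and it was tested on simulated data. Starts came from RefSeq promoter windows (17492 genes, from 250 bases before to 50 after a start) or, for 4395 genes, from both ends of the span. Gene bodies were spans of protein-coding genes outside the start windows, and the rest was called intergenic. Regions were ranked by the mean of their −log10 q ranks in the 2 lists. Intervals are 95% Clopper-Pearson.

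The genes named are members of the 6 RUNX, cartilage and bone lists, called members of the lists of other cell types (added after their values were seen), the best-ranked 10, 8 and 8 regions by place, the 8 widest, the 10 genes with most regions, and genes at day 0 regions. The rule for printed promoters asked for both summits in the window. It was not followed, because it gave few promoters free of the gene's own transcripts. The comparison, its members and the gene lists were chosen with earlier results of these data known. Alternatives were a −log10 q of at least 5, other overlaps, windows, annotations and gene assignments, the best-ranked 100 peaks, and leaving out each library. Analyses used Python 3.11.15, pandas 2.3.3 and SciPy 1.17.1. The H3K4me3 lists served for comparison. The inputs, the SOX9 and control antibodies and the genome sequence were not used here, and some list members are not reported here by name.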

Additional observations from a re-analysis of the deposited data

How the results depend on the processing

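The log2 ratio of peak numbers, 7.43, was 7.43 at a −log10 q of at least 5, with the replicate numbers as a block (pairing gave an exact sign-flip p of 0.500, the smallest for 2 pairs), and, as added after seeing the data, with the day 3 lists counted as 1 sample. It ranged from 7.33 to 7.52 without each library. The shares at gene starts, in gene bodies and intergenic (75.9, 10.2 and 13.9%) moved by more than the spread between the 2 day 3 calls as follows. With all annotated genes, 81.9% lay at starts and 7.67% were intergenic. With either end of every gene span (added), 71.0% lay at ends and 15.4% in bodies. With the list 1 summit placing the region, 12.2% lay in bodies. Among the 26 regions of the best-ranked 100 peaks of each list, 0% lay in bodies and 23.1% were intergenic. Without day 3 list 2, 68.5% lay at starts, 13.4% in bodies and 18.1% were intergenic. Without list 1 the shares, 73.9, 11.3 and 14.8% in that order, stayed within the spread. The spread was taken from these same single-list shares, so it cannot judge the leaving out of a list. The number of day 3 regions stayed between 14780 and 19319 and that of genes called between 9725 (annotated starts only, added) and 12203. Day 0 regions, 60, numbered 135 under a reciprocal overlap of 50%, with 8.15% of them found on day 3, against 78.3%. They numbered 64 to 137 without a day 3 list (51.8 to 87.5% found on day 3; the 137 is without list 2, whose wide peaks join day 0 peaks) and 69 to 74 without a day 0 list (66.2 to 72.5%). Counting regions in the span or nearest within 50 kb, 116 of the 221 list genes were called against 98. Of the 24 lists, 9 moved by more than 1.5 times, all of them lists of other tissues or gene families. The log2 ratio of peak numbers stayed positive under every setting, from 7.33 to 7.52. The other results are counts and shares, which have no sign, so whether they reversed was not tested. Among them, the share of day 0 regions found on day 3 fell from most (78.3%) to few (8.15%) under the reciprocal overlap. Depth limits what is said of uncalled genes.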
